A study of Gallus gallus with 6 samples.

Results

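The F-box ubiquitin ligase adaptors of the hen jejunum were taken as all genes of the deposited expression table whose symbol begins with FBXO, FBXL or FBXW, and that had at least 10 counts in 3 or more of the 6 libraries. The table lists 52 such genes among its 16317 genes, and 48 of them passed the count rule: 27 of 30 FBXO, 14 of 15 FBXL and 7 of 7 FBXW genes. The samples are mucosa of the jejunum, a long middle stretch of the small intestine, from SUT breeder hens (Gallus gallus) aged 28 weeks. The heat group was held at 36 °C for 6 h and the control group was kept at 23 °C, with 25 of 50 hens under each condition, a design meant to find genes of the gut that answer acute heat. RNA of 12 hens per condition was sequenced as 3 pools of 4 hens each, so that each value below is that of a pool and the spread is a spread between pools.

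F-box proteins are the part of the SCF ubiquitin ligase that picks the substrate. The F-box motif docks on SKP1, SKP1 binds the cullin scaffold CUL1, and the ring protein RBX1 at the far end of CUL1 brings in the E2 enzyme that carries ubiquitin. The letter after FBX names the part that holds the substrate: W for WD40 repeats, L for leucine-rich repeats and O for any other domain. In the gut epithelium of mammals such ligases are known for setting the lifetime of cell cycle, Wnt and Notch proteins in the crypts. FBXO32 is best known from wasting skeletal muscle.

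The libraries held 11513427 to 12947832 estimated counts in heat pools and 13542604 to 13805395 in control pools. The same count rule left 13088 genes, which were tested together. Enterocyte markers were high in all pools, with a mean of 7093 FPKM (fragments scaled to gene length and library size) for FABP2, 460.3 FPKM for VIL1 and 1765 FPKM for EPCAM over the 6 pools. Of the 8 enterocyte markers 7 were fitted higher and 1 lower in heat, with a median log2 fold change of 0.25. APOB, the protein core of lipoproteins, was at 170, 147 and 141 FPKM in heat pools, against 121, 106 and 98.5 FPKM in control pools, and was called higher by DESeq2 (adjusted p 0.00265; edgeR adjusted p 0.146). VIL1 was at 368, 268 and 455 FPKM in heat pools, against 564, 546 and 561 FPKM in control pools (edgeR adjusted p 0.234). CPM below are counts scaled to library size with TMM factors. The summed CPM of each marker list overlapped between the groups, apart from the erythroid list. Fibroblast markers summed to 1320, 2040 and 1054 CPM in heat pools, against 1127, 1563 and 1667 CPM in control pools. Smooth muscle markers summed to 741, 1513 and 1575 CPM in heat pools, against 955, 750 and 1279 CPM in control pools. The 2 tested erythroid genes summed to 12.6 to 17.1 CPM in heat pools and 21.2 to 23.2 CPM in control pools. No marker gene passed in edgeR. Their part in the results below was not tested. In bulk tissue, fewer cells of a type and less RNA per cell cannot be told apart.

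As a family, the F-box genes moved about as often as genes at large. Heat was compared with control by the quasi-likelihood test of edgeR, with p adjusted over all tested genes and a threshold of 0.05. None of the 48 passed, where 0.0229% of all tested genes did. With a trend on implied length taken out of each library, 0 passed as well, against 0.0306% of all tested genes. Over all tested genes the log2 fold change rose with implied length (Spearman correlation 0.224). The median implied length was 2910 bp for members and 2555 bp for all tested genes. At an unadjusted p under 0.05 edgeR counted 8 of the 48 (16.7%, against 17.9% of all tested genes). Of the 48, 6 were higher (12.5%, against 8.86% of all tested genes) and 2 lower (4.17%, against 9.08%). With the length trend taken out, 6 were higher (12.5%, against 9.21%) and 1 lower (2.08%, against 8.3%). DESeq2 called 2 higher, FBXO32 and FBXL21, and 0 lower (4.17%, against 5.48% of genes with a DESeq2 adjusted p, 3.01% higher and 2.47% lower). limma-trend on log2(FPKM + 1) called 0, against 0.0153% of all tested genes. In 12 of the 48 (25%) the pools did not overlap between the groups, against 24.4% of all tested genes. Of the 48, 9 were higher in heat without overlap (18.8%, against 11.5% of all tested genes) and 3 lower (6.25%, against 13%). The share of higher genes among those with an unadjusted p under 0.05 was 75% of members and 49.4% of all genes in edgeR, while limma-trend with a pseudocount of 1 FPKM gave 57.1% and 28.3%. The median log2 fold change was 0.04, with 28 genes above 0, and the median over all tested genes was 0.00. The quartiles of the family were -0.06 and 0.22, and those of all tested genes were -0.21 and 0.20. By type, the median was 0.04 for FBXO, 0.07 for FBXL and 0.03 for FBXW genes.

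**Figure D1:**
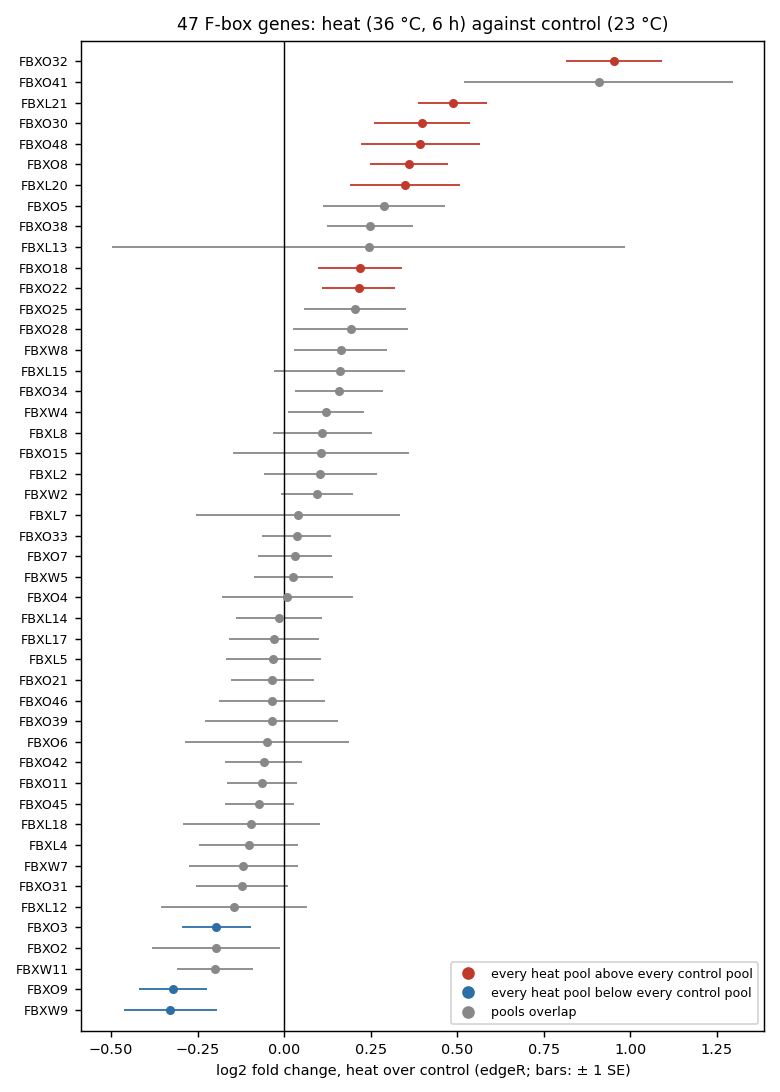
Log2 fold change of heat over control for 47 F-box genes (x axis, edgeR, bars ± 1 SE), 1 gene per row, coloured by whether the 3 heat pools lay all above, all below or among the 3 control pools. Most genes sit within 0.2 of 0 (31 of 47), FBXO32 stands at the top with 0.95, and FBXW9 at the bottom with -0.33.

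FBXO32 (gene 420343), called atrogin-1 in mammals, where it is the muscle-rich F-box protein that is switched on by FOXO factors and glucocorticoids, showed the largest fitted difference and the smallest p of the family. It stood at 49.0, 55.1 and 41.0 CPM in heat pools 1, 2 and 3, against 25.6, 25.9 and 23.4 CPM in control pools 1, 2 and 3. All 3 heat pools were far above all 3 control pools, and the gap between the groups was wider than the spread within either. The mean was 48.4 ± 7.12 CPM in heat and 25.0 ± 1.33 CPM in control pools (SD, n = 3 each), a log2 fold change of 0.95 (SE 0.14). It ranked 17 among the 13088 genes by p, with an edgeR adjusted p of 0.0773, which misses the threshold. DESeq2 gave it an adjusted p of 5.33e-06, and over all alternatives the adjusted p ran from 5.33e-06 to 0.255 while the log2 fold change ran from 0.78 to 1.06.

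Its nearest relative is FBXO25 (gene 421906), a nuclear F-box protein. FBXO25 stood at 219, 213 and 285 CPM in heat pools and 194, 204 and 225 CPM in control pools, with heat pool 3 above the rest and the other pools overlapping (log2 fold change 0.21, SE 0.15, edgeR adjusted p 0.499). Per gene length, FBXO32 amounted to 0.0967, 0.109 and 0.0626 of FBXO25 (ratio of FPKM) in heat pools, against 0.0564, 0.0549 and 0.0459 in control pools. Every heat pool had the higher ratio, a difference of 0.74 on the log2 scale with an exact two-sided permutation p of 0.1, the smallest that 3 pools against 3 allow (adjusted 0.4 over 4 pairs of relatives), so this test could not pass the threshold.

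Muscle was looked at beside FBXO32. Of the 4 skeletal muscle markers only ACTA1, the skeletal actin, was listed in the deposited data. MYOD1, MYOG and CKM were not listed under these symbols, so their levels are not known. ACTA1 was at 2.04, 3.42 and 3.72 CPM in heat pools and 3.30, 4.23 and 5.05 CPM in control pools. Of the 8 smooth muscle markers 7 were fitted higher in heat, with a median log2 fold change of 0.36 and 0 past the threshold in edgeR, and their summed levels by pool are given above. Their part in the FBXO32 difference was not tested. TRIM63, the other well-known ligase of muscle wasting in mammals, was low, at 1.61, 3.50 and 1.82 CPM in heat pools and 1.43, 1.65 and 1.44 CPM in control pools. KLHL41, a muscle adaptor of CUL3, was at 4.50, 7.48 and 2.97 CPM in heat pools against 2.51, 2.15 and 2.89 CPM in control pools.

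Genes tied to FOXO and glucocorticoid signalling, the signals that switch FBXO32 on in mammals, were read beside it. They include parts of these signalling routes and genes that the routes act on, so not all are regulators of FBXO32. The list was chosen with earlier results on IRS2 and PDK4 known. Of its 17 tested members, 1 passed in edgeR (IRS2), 5 in DESeq2 and 0 in limma-trend on log2(FPKM + 1), all higher. Among all genes with an adjusted p, DESeq2 called 5.48% in either direction. At an unadjusted p under 0.05, 8 were higher and 0 lower (47.1%, against 17.9% of all tested genes in either direction), and 16 of 17 had a positive fitted change, with a median of 0.35. IRS2, an insulin receptor adaptor, was at 70.0, 82.8 and 74.0 CPM in heat pools, against 29.3, 24.8 and 31.4 CPM in control pools. edgeR gave a log2 fold change of 1.41 (SE 0.13, edgeR adjusted p 0.0311). That call was lost without heat pool 1 or 2 or any single control pool, and under limma-trend with either pseudocount, where the adjusted p was 0.0539 to 0.255. PDK4, a kinase that shuts down glucose oxidation, was at 84.4, 205 and 65.8 CPM in heat pools, against 21.0, 21.6 and 10.1 CPM in control pools (edgeR adjusted p 0.0773, and 0.038 in the fit with a replicate block). KLF15, a glucocorticoid-induced transcription factor that works with FOXO factors on atrogin-1 in rodent muscle, was at 10.1, 14.4 and 13.1 CPM in heat pools, against 6.598, 5.38 and 6.49 CPM in control pools (edgeR adjusted p 0.0888). The FOXO genes themselves differed less on the log2 fold change scale. FOXO4 was at 0.35 (SE 0.10, edgeR adjusted p 0.152), higher in heat without overlap. FOXO1 (0.27, SE 0.12, edgeR adjusted p 0.293) and FOXO3 (0.17, SE 0.13, edgeR adjusted p 0.537) overlapped between the groups. Also in this list, INSR (0.78, SE 0.16, edgeR adjusted p 0.0979) and TSC22D3 (0.998, SE 0.249, edgeR adjusted p 0.125) were higher without overlap. FKBP5 (0.0042, SE 0.217, edgeR adjusted p 0.995) and NR3C1 (0.21, SE 0.17, edgeR adjusted p 0.551) overlapped between the groups. GABARAPL1, the 1 member with a negative fitted change, overlapped too, at -0.11 (SE 0.13, edgeR adjusted p 0.71).

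**Figure D2:**
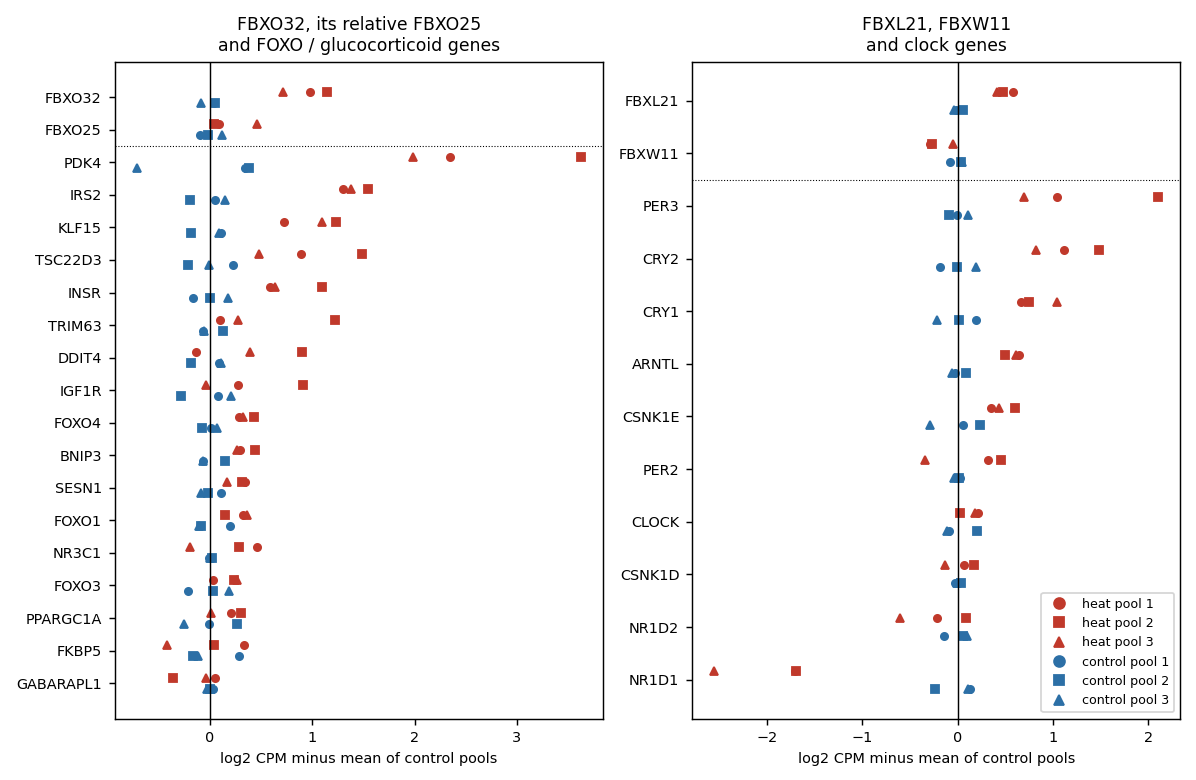
Log2 CPM of each pool minus the mean of the control pools (x axis) for FBXO32, FBXO25 and 17 FOXO and glucocorticoid genes on the left, and for FBXL21, FBXW11 and 10 clock genes on the right; 1 symbol per pool, heat in red and control in blue. FBXO32, PDK4, IRS2 and KLF15 have all heat pools to the right of all control pools, and FBXO25 does not. FBXL21 also lies to the right, as do CRY1, CRY2, ARNTL, PER3 and CSNK1E, while PER2, CLOCK, CSNK1D and NR1D2 overlap.

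FBXL21, an F-box protein that binds the clock repressors CRY1 and CRY2 in mice, also stood higher in every heat pool than in any control pool, though it did not pass in edgeR. FBXL21 (gene 416306) stood at 77.1, 71.6 and 68.7 CPM in heat pools and 50.9, 53.8 and 50.4 CPM in control pools. The lowest heat pool was well above the highest control pool, and the pools of each group lay close together. The means were 72.5 ± 4.25 and 51.7 ± 1.86 CPM in heat and control pools (SD, n = 3 each), a log2 fold change of 0.49 (SE 0.10, edgeR adjusted p 0.0933, DESeq2 adjusted p 0.005, range over all alternatives 0.005 to 0.302).

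The cryptochromes themselves stood higher too. CRY2 averaged 257 ± 58.6 CPM in heat pools, with 203 CPM in the lowest, against 115 ± 14.9 CPM in control pools, with 131 CPM in the highest (SD, n = 3 each). edgeR fitted 1.16 on the log2 scale (SE 0.18, adjusted p 0.0773). CRY1 was at 83.8, 89.0 and 109 CPM in heat pools, against 60.7, 53.7 and 45.7 CPM in control pools (0.82, SE 0.15, edgeR adjusted p 0.0773). NR1D1, another repressor of the clock, was lower, at 1.19, 1.19 and 0.661 CPM in heat pools against 4.23, 3.30 and 4.18 CPM in control pools (-1.93, SE 0.32, edgeR adjusted p 0.0773). The heat values of NR1D1 are low and set by few reads. The clock list was chosen with earlier results of these data known, so its shares are a description only. Of its 10 genes, 0 passed in edgeR, and 5 were higher and 1 lower at an unadjusted p under 0.05 (60%, against 17.9% of all tested genes). DESeq2 called 4 higher and 1 lower, where it called 5.48% of all genes, and limma-trend on log2(FPKM + 1) called 0. ARNTL was higher without overlap, at 53.2, 48.1 and 51.85 CPM in heat pools against 33.4, 36.05 and 32.5 CPM in control pools. Its log2 fold change was 0.59 (SE 0.11, edgeR adjusted p 0.0784, DESeq2 adjusted p 0.00156). PER3 was also higher without overlap (log2 fold change 1.41, SE 0.34, edgeR adjusted p 0.122). PER2 (0.18, SE 0.19), CLOCK (0.13, SE 0.12) and CSNK1D (0.04, SE 0.11) overlapped between the groups. No source used here states the time of day of sampling, so heat and time of day cannot be told apart for these genes.

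FBXW11 and BTRC are close relatives that direct the decay of PER proteins, beta-catenin and the NF-kappaB inhibitor in mammals. FBXW11 was at 58.9, 59.5 and 69.8 CPM in heat pools and 68.1, 73.7 and 74.3 CPM in control pools, with heat pool 3 inside the control range. On the log2 scale the change fitted was -0.20 (SE 0.11, edgeR adjusted p 0.38). BTRC was at 33.3, 33.3 and 28.2 CPM in heat pools and 29.8, 29.2 and 28.8 CPM in control pools, with heat pool 3 the lowest of all (0.11, SE 0.12, edgeR adjusted p 0.672). FBXW11 was 3.06, 2.87 and 3.71 times as abundant per length as BTRC in heat pools and 3.57, 3.56 and 4.38 times in control pools (exact two-sided permutation p 0.3, adjusted 0.4). In FPKM the heat pools of FBXW11 all lay below its control pools, at 15.8, 15.5 and 17.2 against 18.1, 20.04 and 19.95 FPKM.

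In 6 further members the heat pools all lay above the control pools in CPM, and none of them passed in edgeR or DESeq2. FBXO8, which carries a Sec7 domain known from exchange factors of small ARF GTPases, was at 115, 103 and 125 CPM in heat pools and 94.0, 83.8 and 88.8 CPM in control pools (log2 fold change 0.36, SE 0.11, edgeR adjusted p 0.166). In a newer assembly, GRCg7b, its span overlaps that of CEP44, which was at 0.24 (SE 0.13, edgeR adjusted p 0.377). FBXO30, known in mouse muscle as another ligase gene of wasting, was at 73.9, 85.3 and 63.9 CPM in heat pools and 63.0, 54.8 and 51.4 CPM in control pools, a narrow separation, since heat pool 3 and control pool 1 nearly touch (0.40, SE 0.14, edgeR adjusted p 0.198).

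FBXO48, reported in human cells to act on active AMP kinase, was at 15.6, 12.6 and 13.4 CPM in heat pools and 9.47, 10.03 and 12.1 CPM in control pools. The log2 fold change was 0.39 (SE 0.17, edgeR adjusted p 0.283). FBXL20, a relative of FBXL2 known from mouse synapses, was at 35.6, 48.4 and 36.0 CPM in heat pools and 34.6, 28.2 and 31.4 CPM in control pools (0.35, SE 0.16, edgeR adjusted p 0.295). Heat pool 2 was the highest of all pools, and without it the log2 fold change was 0.19. FBXO22, which targets histone demethylases in human cells, was at 111, 102 and 96.3 CPM in heat pools and 89.1, 83.9 and 93.9 CPM in control pools (0.22, SE 0.11, edgeR adjusted p 0.327). FBXO18, a DNA helicase with an F-box that acts at stalled replication forks, was at 24.4, 27.0 and 24.9 CPM in heat pools and 21.1, 21.2 and 23.3 CPM in control pools (0.22, SE 0.12, edgeR adjusted p 0.381).

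The counts of members without overlap depended on the scale, as did those of all genes. On the authors' FPKM scale, which is not TMM scaled, 5 of the 9 higher members still had no overlap between the groups (FBXO32, FBXL21, FBXO8 and FBXO48 among them), while FBXO30, FBXL20, FBXO22 and FBXO18 overlapped. The 3 lower members and FBXW11 lay below control without overlap in FPKM. That makes 10.4% of members higher and 8.33% lower in FPKM, against 7.56% and 17% of all tested genes, where CPM gave 11.5% and 13% of all tested genes. The 48 genes together summed to 2252, 2199 and 2253 CPM in heat pools and 2084, 2056 and 2073 CPM in control pools, without overlap. In FPKM they summed to 849, 787 and 792 in heat pools and 785, 797 and 793 in control pools, with overlap. The summed FPKM of all tested genes was itself lower in every heat pool (897600, 894400 and 892800) than in any control pool (951000, 913200 and 936900). The FPKM sums of the family are not corrected for that. The summed CPM of all tested genes was 976600, 1016000 and 1068000 in heat pools and 989500, 969900 and 982900 in control pools. The CPM sums of the family are not corrected for these totals either. Adaptors of the other cullins, described below, also summed higher in heat without overlap. Their sums were 1531, 1490 and 1523 CPM in heat pools and 1408, 1395 and 1351 CPM in control pools. The separation in CPM is thus not particular to the F-box genes.

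**Figure D3:**
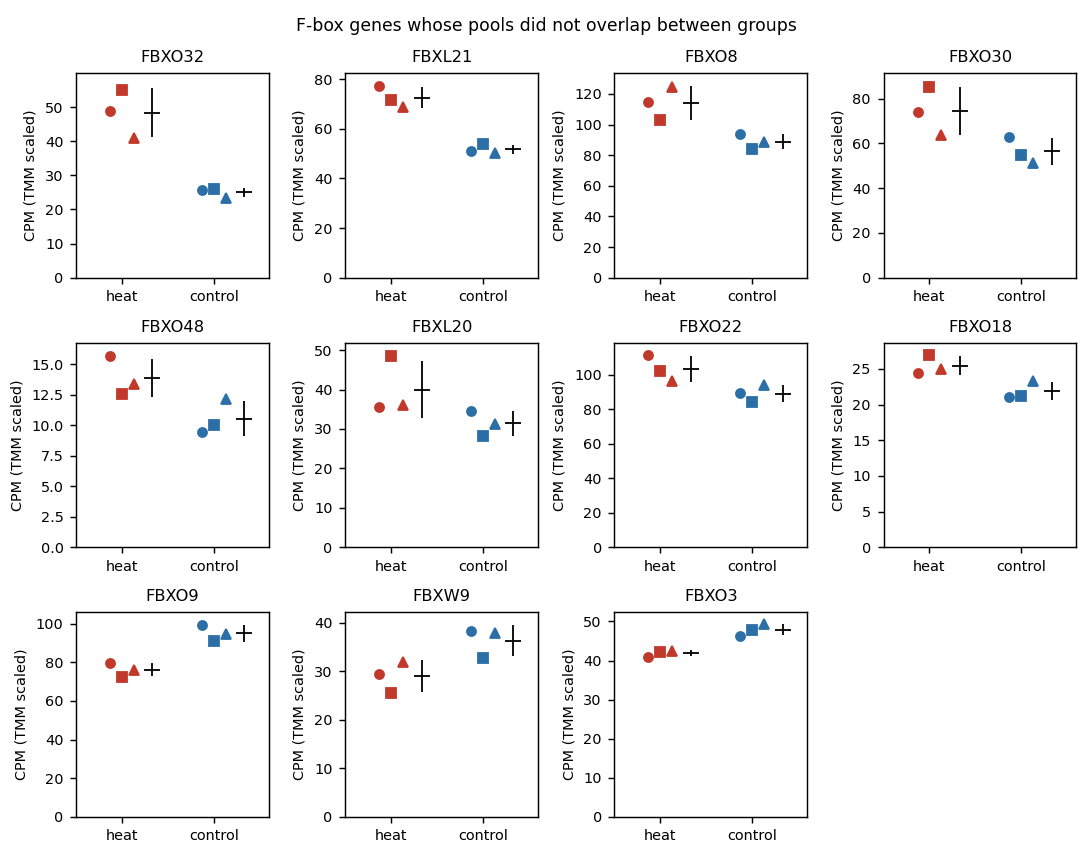
CPM of 11 F-box genes whose pools did not overlap between the groups, with heat to the left of control in each panel; circles, squares and triangles are pools 1, 2 and 3 and the black mark is the mean ± SD of 3 pools. The first 8 panels are higher in heat and the last 3, FBXO9, FBXW9 and FBXO3, are lower. The separation is widest in FBXO32 and FBXL21 and narrow in FBXO30, FBXL20, FBXO48, FBXO22 and FBXW9.

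The 3 members whose heat pools all lay below the control pools were FBXO9, FBXW9 and FBXO3. FBXO9 (gene 421895), which in human cells trims the TOR kinase complexes when growth factors are scarce, was at 79.5, 72.7 and 76.2 CPM in heat pools and 99.6, 90.9 and 94.9 CPM in control pools. The highest heat pool was clearly below the lowest control pool, with a log2 fold change of -0.32 (SE 0.10, edgeR adjusted p 0.163). FBXW9, a WD40 repeat member with no well-settled substrate, was at 29.4, 25.5 and 32.0 CPM in heat pools and 38.3, 32.8 and 38.0 CPM in control pools, where heat pool 3 came close to control pool 2 (-0.33, SE 0.13, edgeR adjusted p 0.254).

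FBXO3, whose human form sends other F-box proteins such as FBXL2 to degradation, was at 41.0, 42.1 and 42.4 CPM in heat pools and 46.4, 47.9 and 49.4 CPM in control pools (log2 fold change -0.20, SE 0.10, edgeR adjusted p 0.345). FBXL2 itself, which acts on subunits of the lipid kinase PI3K in human cells, was at 35.9, 35.3 and 25.6 CPM in heat pools and 30.1, 26.7 and 33.2 CPM in control pools, with heat pool 3 lowest of all (0.10, SE 0.16, edgeR adjusted p 0.784). The FPKM ratio of FBXL20 to FBXL2 was 1.11, 1.54 and 1.58 in heat pools and 1.29, 1.19 and 1.07 in control pools (exact two-sided permutation p 0.3, adjusted 0.4).

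Several members are known from growth and the cell cycle. FBXW7, the tumour suppressor that takes cyclin E, MYC and NOTCH to the proteasome and is known for its part in intestinal crypts of mice, was at 15.5, 12.7 and 12.6 CPM in heat pools and 16.2, 14.1 and 13.9 CPM in control pools. This is a log2 fold change of -0.12 (SE 0.16, edgeR adjusted p 0.742). FBXO5, the inhibitor of the anaphase-promoting complex also called EMI1, was at 35.1, 32.9 and 22.5 CPM in heat pools and 24.5, 24.0 and 25.5 CPM in control pools. Heat pools 1 and 2 were above and heat pool 3 below all control pools (0.29, SE 0.18, edgeR adjusted p 0.424). FBXO11, which removes BCL6 in lymphocytes, was at 77.8, 74.8 and 66.8 CPM in heat pools and 77.0, 77.7 and 74.6 CPM in control pools (-0.06, SE 0.10, edgeR adjusted p 0.788), and FBXO31, which acts on cyclin D1, was at -0.12 (SE 0.13).

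F-box proteins filed under other symbols were read beside them, 6 of which were tested. CCNF, cyclin F, which clears RRM2 in the late cell cycle, was at 17.3, 14.6 and 14.3 CPM in heat pools and 21.2, 20.5 and 18.0 CPM in control pools, without overlap (log2 fold change -0.37, SE 0.15, edgeR adjusted p 0.242). SKP2, which removes the cell cycle brake CDKN1B, was at 30.5, 30.4 and 32.6 CPM in heat pools and 33.8, 36.2 and 38.7 CPM in control pools, also without overlap (-0.22, SE 0.11, edgeR adjusted p 0.355). LMO7, a junction and actin protein with an F-box, was at 298, 316 and 326 CPM in heat pools and 242, 263 and 254 CPM in control pools (0.31, SE 0.11, edgeR adjusted p 0.208). The histone demethylases KDM2A and KDM2B were at 0.21 (SE 0.15) and 0.04 (SE 0.12) on the log2 fold change scale.

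Messenger RNAs of 30 known F-box substrates gave 0 calls in edgeR and in limma-trend on log2(FPKM + 1). This list, too, was chosen with earlier results of these data known, and it shares CRY1 and CRY2 with the clock list. DESeq2 called 2 higher (CRY1 and CRY2) and 1 lower, where it called 5.48% of all genes with an adjusted p. At an unadjusted p under 0.05, 7 were higher and 3 lower (33.3%, against 17.9% of all tested genes). RRM2, the ribonucleotide reductase subunit that CCNF removes, was at 44.9, 43.1 and 47.0 CPM in heat pools and 83.6, 56.8 and 66.4 CPM in control pools. Heat over control, the log2 fold change was -0.62 (SE 0.15, edgeR adjusted p 0.123). CDKN1B, the brake removed by SKP2, was at 145, 178 and 132 CPM in heat pools and 116, 119 and 113 CPM in control pools (0.39, SE 0.13, edgeR adjusted p 0.187). These are levels of RNA, and protein decay, the step that F-box proteins control, was not measured.

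FBXL5, which carries an iron-binding domain and removes the iron regulator IREB2 when iron is plentiful, was among the most abundant members and did not separate, at 76.4, 69.2 and 91.6 CPM in heat pools and 83.1, 87.6 and 71.6 CPM in control pools (log2 fold change -0.03, SE 0.14, edgeR adjusted p 0.935). Of 8 iron genes around it, 0 passed in edgeR, DESeq2 or limma-trend on log2(FPKM + 1). DESeq2 called 5.48% of all genes with an adjusted p. In edgeR 0 of the 8 had an unadjusted p under 0.05, against 17.9% of all tested genes. With so few genes these counts cannot be told from the shares of all genes. IREB2 was at 77.5, 66.1 and 70.8 CPM in heat pools and 70.7, 68.4 and 65.8 CPM in control pools, and HMOX1 (0.45, SE 0.23) and TFRC (-0.28, SE 0.23) overlapped between the groups.

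Other members have roles outside the cell cycle. FBXO6, which in mammals binds sugar chains of misfolded glycoproteins, was at 33.5, 27.9 and 55.2 CPM in heat pools and 40.3, 43.0 and 37.4 CPM in control pools. Heat pool 3 was the highest and heat pools 1 and 2 the lowest of all pools, so the mean difference of -0.05 (log2, SE 0.24) hides a wide spread among the heat pools. The same gene identifier carries the name FBXO44, a close relative, in GRCg7b. FBXO2, a further sugar-binding member, was at 11.5, 8.67 and 10.4 CPM in heat pools and 11.7, 13.2 and 10.1 CPM in control pools.

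FBXO7, a parkinsonism gene that takes part in removal of damaged mitochondria and binds a proteasome regulator in human cells, was at 43.0, 44.5 and 45.2 CPM in heat pools and 46.9, 41.6 and 41.3 CPM in control pools (log2 fold change 0.03, SE 0.11). FBXL4, a mitochondrial member, was at 14.9, 12.5 and 14.2 CPM in heat pools and 14.4, 15.3 and 15.01 CPM in control pools (-0.10, SE 0.14). FBXO45, which works with a large ring ligase in nerve growth rather than with CUL1, was at 63.5, 60.5 and 61.8 CPM in heat pools and 66.7, 68.1 and 60.5 CPM in control pools (-0.07, SE 0.10).

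Per gene length the family spanned a wide range of levels. FBXO25 led with 118 ± 14.8 FPKM in heat pools and 107 ± 8.85 FPKM in control pools (SD, n = 3 each), and made up between 12.5% and 17.0% of the summed FPKM of the 48 genes. The next were FBXW4, named for limb defects in mice (41.3 ± 5.10 and 39.4 ± 1.20 FPKM in heat and control pools), FBXO34 (37.8 ± 6.86 and 35.3 ± 1.13 FPKM), FBXO9 (30.8 ± 2.41 and 39.9 ± 1.38 FPKM) and FBXL5 (33.8 ± 3.87 and 36.0 ± 3.72 FPKM). The ranges of these 4 over the 6 pools overlap one another, so their order is not firm. By the mean over all pools 13 members had 20 FPKM or more, 26 had between 5 and 20 FPKM and 9 had under 5 FPKM. The median was 13.7 FPKM for FBXO, 8.97 FPKM for FBXL and 17.8 FPKM for FBXW genes, and 10.5 FPKM for all tested genes. FBXO32, with a mean of 7.95 FPKM, stood only at rank 35 of the 48 by level, and FBXL21 (20.5 FPKM) at rank 13.

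**Figure D4:**
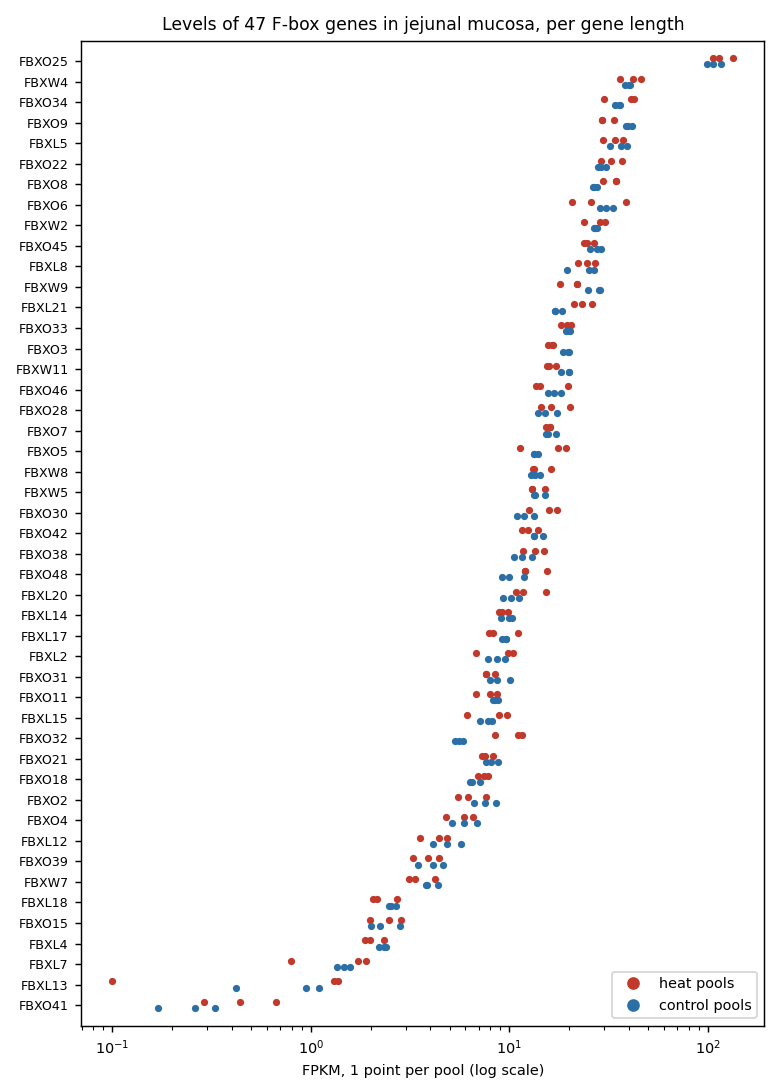
FPKM of 47 F-box genes in each pool (x axis, log scale), ordered by their mean; heat pools in red above control pools in blue in each row. FBXO25 stands apart at the top with a mean of 112.5 FPKM, most genes lie between 5 and 40 FPKM, and FBXL13 and FBXO41 are the lowest, under 1 FPKM on average.

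At the low end, FBXO41, a neuronal member, had 33, 56 and 25 counts in heat pools and 24, 15 and 30 counts in control pools, and FBXL13 had 39, 3 and 43 counts in heat pools and 32, 14 and 37 counts in control pools. These 2 were the members nearest above the count rule, and FBXL13 was the only member under 10 counts in any pool. FBXO41 had the second highest fold change (0.91, SE 0.39), but with an edgeR adjusted p of 0.274 and heat pool 3 below control pool 3. The 4 members below the rule, FBXL16, FBXO16, FBXO43 and FBXO47, had 1 count each, all in a control pool. Their 0 counts in heat pools allow up to 3 counts, or 0.232 to 0.261 CPM, a limit that covers counting error only.

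A further group of members, none named above, overlapped between the groups. They were FBXO4, FBXO15, FBXO21, FBXO28, FBXO33, FBXO38, FBXO39, FBXO42, FBXO46, FBXL7, FBXL8, FBXL12, FBXL14, FBXL15, FBXL17, FBXL18, FBXW2, FBXW5 and FBXW8. Their log2 fold changes lay between -0.14 (FBXL12) and 0.25 (FBXO38). FBXO38, a coactivator of KLF7 as well as a ligase part, had the smallest p of these (edgeR adjusted 0.336), at 55.8, 52.4 and 47.2 CPM in heat pools and 48.6, 42.9 and 39.4 CPM in control pools. FBXL7, known for acting on Aurora A kinase, was at 6.54, 6.21 and 3.14 CPM in heat pools and 4.81, 5.16 and 5.48 CPM in control pools, with heat pool 3 well below the other 5 pools. FBXL15, known for acting on the BMP pathway ligase SMURF1, was at 28.3, 20.4 and 33.9 CPM in heat pools and 26.2, 22.5 and 25.1 CPM in control pools.

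The docking protein, the scaffold and the usual ring protein of the ligase did not pass the test. SKP1, which every F-box protein docks on, was at 355, 338 and 459 CPM in heat pools and 331, 405 and 365 CPM in control pools. The fitted log2 fold change was 0.07 (SE 0.16, edgeR adjusted p 0.866). CUL1, the scaffold, was at 128, 135 and 135 CPM in heat pools and 118, 126 and 121 CPM in control pools, without overlap by a narrow margin (0.12, SE 0.10, edgeR adjusted p 0.546). RBX1, the usual ring protein of CUL1, was at 64.6, 69.5 and 83.5 CPM in heat pools and 83.7, 76.3 and 87.9 CPM in control pools (-0.19, SE 0.13, edgeR adjusted p 0.467).

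RNF7, the second ring protein, which serves CUL5 and in some settings CUL1, was called higher by DESeq2 but did not pass in edgeR. It was at 171, 170 and 181 CPM in heat pools and 119, 116 and 127 CPM in control pools, with no overlap (log2 fold change 0.53, SE 0.10, edgeR adjusted p 0.0838, DESeq2 adjusted p 0.000611, range over alternatives 0.000611 to 0.277). SUGT1, a co-chaperone that links SKP1 to the HSP90 machinery, was at 146, 231 and 158 CPM in heat pools and 122, 112 and 103 CPM in control pools, highest in heat pool 2 (0.67, SE 0.18, edgeR adjusted p 0.141). UBE2D2, an E2 enzyme of the ligase, was at 264, 317 and 275 CPM in heat pools and 234, 228 and 215 CPM in control pools (0.34, SE 0.12, edgeR adjusted p 0.205). Of the 15 core and E2 genes tested, 0 passed in edgeR and in limma-trend on log2(FPKM + 1). DESeq2 called 2 of the 15 higher, where it called 5.48% of all genes with an adjusted p. At an unadjusted p under 0.05, 3 were higher and 0 lower (20%, against 17.9% of all tested genes in either direction).

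**Figure D5:**
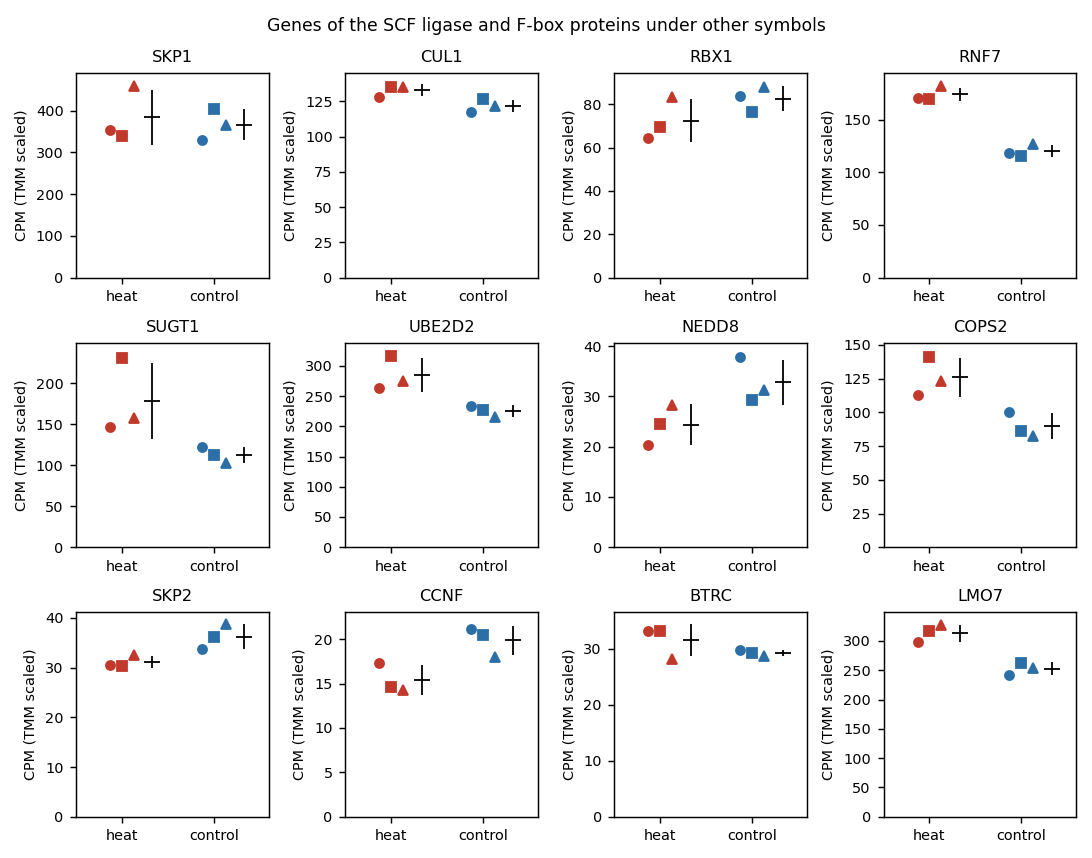
CPM of 12 genes of the SCF ligase and of F-box proteins under other symbols, with heat to the left of control in each panel; circles, squares and triangles are pools 1, 2 and 3 and the black mark is the mean ± SD of 3 pools. RNF7, SUGT1, UBE2D2, COPS2 and LMO7 have every heat pool above every control pool, NEDD8, SKP2 and CCNF have every heat pool below, and SKP1, RBX1 and BTRC overlap.

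The cycle that switches cullins on and off gave no common direction. NEDD8, the ubiquitin-like protein that activates CUL1, was at 20.3, 24.6 and 28.3 CPM in heat pools and 37.9, 29.2 and 31.4 CPM in control pools (log2 fold change -0.43, SE 0.16, edgeR adjusted p 0.232). COPS2, a subunit of the signalosome that takes NEDD8 off again, was at 113, 141 and 123 CPM in heat pools and 100, 86.1 and 82.2 CPM in control pools (0.49, SE 0.13, edgeR adjusted p 0.133), and DCUN1D5, which helps to attach NEDD8, was at 0.29 (SE 0.13). Of the 21 genes of this cycle, 0 passed in edgeR and in limma-trend on log2(FPKM + 1). DESeq2 called 1 of the 21 higher (COPS2), where it called 5.48% of all genes with an adjusted p. At an unadjusted p under 0.05, 1 was higher and 1 lower (9.52%, against 17.9% of all tested genes). The median log2 fold change was -0.03.

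Adaptors of the other cullins, taken by the symbol prefixes KLHL, DCAF, ASB and SOCS, served as the nearest comparison. Of 58 tested, 0 passed in edgeR and in limma-trend on log2(FPKM + 1). DESeq2 called 3 of the 58 higher, where it called 5.48% of all genes with an adjusted p. At an unadjusted p under 0.05, 5 were higher and 3 lower (13.8%, beside 16.7% of the F-box genes and 17.9% of all tested genes). Their median log2 fold change was 0.02, beside 0.04 for the F-box genes. The 3 with the lowest p were DCAF4, at 52.3, 56.2 and 44.8 CPM in heat pools and 32.7, 32.1 and 31.0 CPM in control pools (0.68, SE 0.12, edgeR adjusted p 0.0773), DCAF10 (0.62, SE 0.15, edgeR adjusted p 0.118) and KLHL42 (0.68, SE 0.16, edgeR adjusted p 0.118).

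The heat pools were not alike, for the F-box genes as for genes at large. In 34 of the 48 (70.8%) the 3 heat pools spanned a wider range than the 3 control pools on the log2 CPM scale, as did 65.7% of all tested genes. Heat pool 2 was the pool farthest from the median of all 6 in 18 members, heat pool 3 in 10 and heat pool 1 in 8. Control pools 1, 2 and 3 were farthest in 8, 2 and 2. The same count was not made over all genes, so it cannot be read as a trait of this family. Without heat pool 3, 11 members were higher and 4 lower at an unadjusted p under 0.05 (31.2%, against 23.5% of all tested genes), and 0 passed the adjusted threshold in edgeR. Without heat pool 2 the counts were 5 and 1 (12.5%, against 12.9% of all tested genes). The log2 fold change of FBXO32 was 0.85 without heat pool 2 and 1.06 without heat pool 3, and FBXL21 was at 0.50 and 0.52.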

How the data were processed

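The data are 6 RNA-seq libraries, 3 of heat pools and 3 of control pools, grouped and numbered by their titles. The submitters' processing notes name cutadapt 1.9.1 and HISAT2 2.0.1, HTSeq 0.6.1, the build GRCg6a, and DESeq2; settings and strand mode are not stated there. Per the labels' protocols, mRNA was isolated by poly(A) capture or by rRNA removal. The authors deposited estimated counts, per the file headers and values (13.05% to 13.65% of a library's values are not whole within 0.001), and FPKM values per the file headers.

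Estimated counts were rounded and tested with edgeR 4.0.16 (quasi-likelihood, two-sided, TMM scaling, Benjamini-Hochberg adjustment over 13088 genes, threshold 0.05) in R 4.3.3; limma 3.58.1 and DESeq2 1.42.0 served as alternatives. SE is the absolute log2 fold change over the square root of F. CPM are TMM scaled. Pool deviations used log2(CPM + 0.5), and the trend on gene length used a length implied by the ratio of counts to FPKM. The edgeR and DESeq2 tests were tried on simulated data with planted changes larger than any fitted for a member. That trial does not cover differences as small as those reported here. Within a group, pairs of libraries differed by more than counting error (chi-square over degrees of freedom, 22.4 to 66.1). Counts of 6 of the 48 F-box genes are fractional, and 18 overlap another gene in GRCg7b, so reads may be shared. Gene identifiers of 45 of the 48 matched that assembly; its coordinates are not given, and no sequences were used here, so the planned motif search was not run.

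Named genes were the members without overlap between groups (up to 8 per direction by p), the 5 with the highest FPKM, a fixed set with known roles, those at the edge of the count rule, and up to 3 per list by p. FBXO18, FBXO38, FBXO2, FBXL4, FBXL7, FBXL15, CDKN1B, ARNTL, CEP44, VIL1, APOB, TRIM63, KLHL41 and the FOXO genes were added after their values were seen. So were INSR, TSC22D3, FKBP5, NR3C1, GABARAPL1, PER2, PER3, CLOCK, CSNK1D, CSNK1E, NR1D2, HBBA and HBA1. Members, lists and pairs of relatives were chosen with earlier results of these data known.
The labels do not say that pools came from separate days or rooms, so p-values measure only the spread between these pools. The values of 1 member, which is counted with the family, are not reported here or drawn.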

Additional observations from a re-analysis of the deposited data

How the results depend on the processing

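The count of F-box genes past an adjusted p of 0.05 was 0 higher and 0 lower in edgeR, without each pool in turn (0 to 0), and in each alternative other than DESeq2, which called 2 higher. At an unadjusted p under 0.05 the main counts were 6 higher and 2 lower. Without single pools they ranged from 3 to 11 higher and from 1 to 4 lower, with the highest counts without heat pool 3 (31.2% of members, against 23.5% of all genes) and the lowest count of higher genes without control pool 2 (6.25%, against 6.56%). The lower count was 1 by DESeq2 (2.08%, against 8.14% of all genes) and 1 after removal of the length trend (2.08%, against 8.3%). It was 4 by limma-trend on log2(FPKM + 1) with a filter of at least 1 FPKM in 3 libraries (8.51%, against 13.9%). Members without overlap were 9 higher and 3 lower. They ranged from 9 to 17 higher and from 3 to 8 lower without single pools (17 without heat pool 3, 35.4% against 20.2% of all genes, and 8 without heat pool 1, 16.7% against 19%). In FPKM 5 were higher with both pseudocounts of limma-trend, 1 and 0.1 (10.4%, against 7.56% of all genes), and with the FPKM filter (10.6%, against 7.79%). After removal of the length trend 5 were lower (10.4%, against 12.2%). The median of 0.04 ranged from 0.02 to 0.07 without single pools and was -0.0214, -0.028 and -0.0224 by limma-trend with log2(FPKM + 1), log2(FPKM + 0.1) and the FPKM filter. By limma-trend on log2(FPKM + 1) 57.1% of members and 28.3% of all genes under p 0.05 were higher, against 75% and 49.4% in edgeR. The cause was not tested. The count rule kept 47 members at 10 counts in all 6 libraries and 48 at 5 counts in 3.

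Direction turned for genes near 0. FBXL5 was at 0.0035 after length trend removal, 0.0565 without heat pool 2 and 0.03 without control pool 2, in a range of -0.1509 to 0.0565 without single pools. FBXO7 was at -0.02 by limma-trend under all 3 settings (-0.0224, -0.0236 and -0.0224). FBXO6 was at 0.015 after length trend removal, 0.045 without heat pool 1 and 0.14 without heat pool 2, in a range of -0.3923 to 0.1412. SKP1 was at -0.0824 without heat pool 3 and -0.0024 without control pool 1, in a range of -0.0824 to 0.1505. BTRC was at -0.0021 by limma-trend under all 3 settings. KDM2B was at -0.0172, -0.0196 and -0.0172 by limma-trend, -0.008 after length trend removal and -0.0617 without heat pool 1, in a range of -0.0617 to 0.1137.

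With the replicate number as a block, 5 members were higher and 2 lower at an unadjusted p under 0.05 (14.6%, against 18.3% of all genes), 0 passed the adjusted threshold, and over all genes 8 were higher and 13 lower, against 3 and 0 without the block. DESeq2 called 363 higher and 298 lower over all genes, and limma-trend with the FPKM filter 14 and 37. Same-numbered pools deviated together with r of 0.26, 0.088 and 0.014 over genes. The labels tie the numbers to no shared hen or day, so whether the numbers pair the pools is not known. Members under about 40 counts, such as FBXL13, are set by few reads.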
